A study of Mus musculus with 12 samples.

Results

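Whether time in culture moved the same genes in a lung and a limb line of peripheral neural stem cells (pNSCs) was asked by taking 1 line's late-early change from the other's. The interaction was the change between alpNSCs-late and alpNSCs-early, the adult lung line, minus the change between elpNSCs-late and elpNSCs-early, the embryonic limb line. It was tested for all 10144 measured genes on 8 of the 12 arrays of the series and 4 of its 6 groups, with 2 arrays per group. It differed from 0 for 574 genes (5.66%) at an adjusted p under 0.05 by limma's moderated test with Benjamini-Hochberg adjustment. The change was more positive in the lung line for 323 genes (3.18%) and more negative for 251 (2.47%). The balance turned with arrays scaled to a common median in place of quantiles, which gave 178 positive and 521 negative calls. With quantiles, 1947 genes had an unadjusted p under 0.05. A positive interaction therefore means a more positive late-early change in the lung line, and every value below is on a log2 scale unless called a fold.

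The arrays were single-colour Illumina bead arrays of total RNA from mouse cells of a mixed C57BL/6, CD1 and C3H background, shared by every group. The groups were alpNSCs-late and alpNSCs-early, labelled adult lung, and elpNSCs-late and elpNSCs-early, labelled embryonic limb. The remaining arrays were 2 of Control-NSC, brain neural stem cells, and 2 of Fibroblasts, and they entered through the normalization, the detection filter and the estimate of spread. With the 8 pNSC arrays alone 314 of 9211 genes were called. The labels do not give the passages behind early and late, so equal time in culture of the lung and limb lines is not known. The study grew such cells in neural stem cell medium with EGF and bFGF and picked single clusters, and each tissue is represented by 1 labelled line, so a tissue and a line cannot be told apart. The study's microarray comparison of embryonic limb and adult lung lines with control neural stem cells and fibroblasts used lines taken through a low-pH treatment. It also derived limb and lung lines without that treatment. The labels neither state nor deny the treatment for these arrays. The methods call the replicates biological without saying whether separate cultures or animals gave them, and p-values here cover nothing beyond the spread of these arrays, which may be technical.

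Neural stem cells held in growth factors divide for long periods as floating or attached clusters, and lines kept in this way are known to change with passage. Genes of proliferation, of the p53 and INK4 brakes on the cell cycle, of cell adhesion and of regional identity are among those known to shift in cultured cells.

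Each array detected 11801 to 12836 of its 25697 probes, and precision is limited by the number of arrays. The elpNSCs-early replicates were the least alike, with 97 genes over 1 apart, against 2 to 11 genes in the other pNSC groups. Of 8 neural stem cell markers, 7 were tested and 0 were called for the interaction, and between 6 and 7 of them were detected on both arrays of each group. All 5 fibroblast markers were at background in all 4 pNSC groups, and the blood, endothelial and lung epithelial markers were not tested because too few arrays detected them.

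The difference between the lines came mostly from genes that passed the test in the limb line. Late against early, 4.83% of all genes were called in the lung line and 23.8% in the limb line. Of the 574 genes, 419 were called in the limb line and not in the lung line (limb only), 62 in the lung line and not in the limb line (lung only) and 27 in both in opposite directions. Another 54 were called in both with the same sign but unequal size, and 12 in neither line taken alone. Limb-only genes had a median interaction of 0.95 in size, lung-only genes 1.23 and opposite genes 1.66. A gene not called in a line is not shown to be unchanged there. The lung change was under 1.5-fold for 415 of the 419 limb-only genes. All 62 lung-only genes had a limb change under 1.5-fold. Small changes there were nearly fixed by the sorting, which asked for no call in that line. Over all genes tested the median size of change was 0.14 in the lung line and 0.22 in the limb line. At least 1 pNSC group was at background for 79 limb-only and 34 lung-only genes, where a change may not be measurable. Of the 54 same-sign genes, the limb change was the larger in 37.

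**Figure D1:**
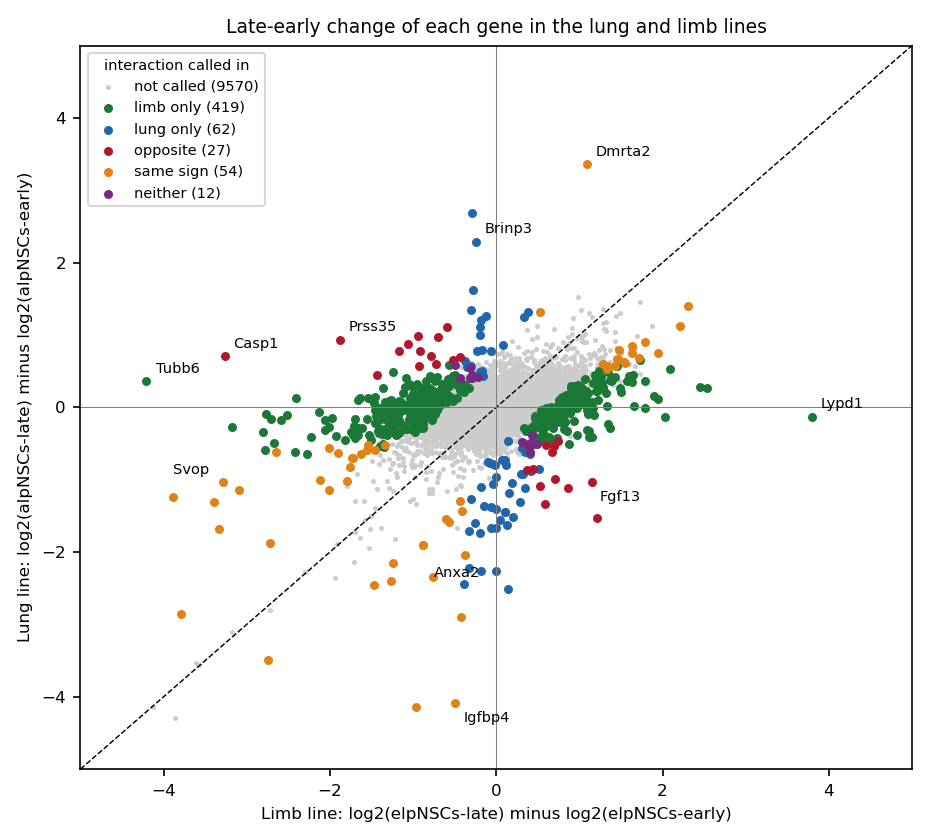
Late-early change of each of 10144 genes in the lung line (vertical axis, log2) against the limb line (horizontal axis, log2). Grey points were not called for the interaction, coloured points are the 574 called genes by class, and the dashed line marks equal change. The limb-only genes spread along the horizontal axis (419 genes) and the lung-only genes along the vertical axis (62 genes).

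Across all genes the late-early changes of the lung and limb lines had a Pearson r of 0.480 (Spearman rank correlation 0.413, n = 10144 genes, which are not independent replicates), and the changes had an SD of 0.315 in the lung line and 0.470 in the limb line. Of 325 genes called in both lines, 298 moved the same way. Looked at from the other side, the gap between the lung and limb lines was called for 10.9% of genes late and 12.5% early. Among the 574 genes the gap was called late only for 180, early only for 218, at both times with the same sign for 90 and at both times with its sign turned for 50, and at neither time for 36. The group farthest from the others was alpNSCs-late for 54 and alpNSCs-early for 50 of the 574 genes, against elpNSCs-late for 228 and elpNSCs-early for 242. These were 9.41%, 8.71%, 39.7% and 42.2% of the 574, beside 17.2%, 16.5%, 30.5% and 35.7% of all 10144 genes, in the same order. The limb groups were thus the more often farthest over all genes too, and the imbalance was larger among the called genes.

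Of the 259 limb-only genes with a positive interaction, elpNSCs-late was the group farthest from the others for 113 and elpNSCs-early for 145. Among those above background in every pNSC group, the largest interactions included genes low on both elpNSCs-late arrays alone. Mfsd10, a membrane transporter of the major facilitator family, had levels of 7.95 and 7.88 in alpNSCs-late and 8.17 and 7.96 in alpNSCs-early, against 5.13 and 5.36 in elpNSCs-late and 8.14 and 7.76 in elpNSCs-early. The elpNSCs-late arrays lay far below the other 6, which overlapped. Its change was -0.16 (95% interval -0.48 to 0.16) in the lung line and -2.71 (-3.03 to -2.39) in the limb line, an interaction of 2.55 ± 0.21 (SE; limma adjusted p = 2.00e-05). Control-NSC arrays had 7.70 and 7.73. Another kept probe of Mfsd10 had a smaller interaction of 0.80, of the same sign. Nudt7, a peroxisomal enzyme that breaks down coenzyme A, was 6.62 and 6.73 in alpNSCs-late and 7.14 and 6.89 in alpNSCs-early, against 4.91 and 4.55 in elpNSCs-late and 7.49 and 7.57 in elpNSCs-early, where 1 of the elpNSCs-late arrays did not detect it. The interaction was 2.46 ± 0.24 (limma adjusted p = 7.58e-05). Csdc2, an RNA-binding cold shock domain protein, was likewise lowest in elpNSCs-late, at 4.77 and 4.60, and 1 of these 2 arrays did not detect it. Its interaction was 2.07 ± 0.16, with values between 0.81 and 3.3 over the alternatives.

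Samd9l, an interferon-inducible growth regulator, and Hrc, a histidine-rich calcium-binding protein of the sarcoplasmic reticulum, followed another course: they were highest in elpNSCs-early. Samd9l had 5.6 and 5.55 in alpNSCs-late, 6.12 and 6.04 in alpNSCs-early, 4.77 and 4.95 in elpNSCs-late and 7.76 and 7.30 in elpNSCs-early. The lung line stood above the limb line late and below it early. Its change of -0.50 (-0.86 to -0.14) in the lung line was not called and that of -2.67 in the limb line was, an interaction of 2.17 ± 0.24 (limma adjusted p = 2.02e-04).

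A few limb-only genes fell to background in elpNSCs-late, so that only a bound can be given. Tubb6, a beta-tubulin of microtubules, had 11.10 and 11.17 in alpNSCs-late and 10.86 and 10.69 in alpNSCs-early, against 4.22 and 4.31, not above background, in elpNSCs-late and 8.60 and 8.36 in elpNSCs-early. Beside a lung change of 0.36 (0.10 to 0.63), not called, its limb level was at least 13.6-fold lower late, and the adjusted p of the interaction was 6.80e-08. Cacng5, an auxiliary subunit of AMPA receptors, had a lung change of 0.13 (-0.16 to 0.42) and was at least 4.75-fold lower in elpNSCs-late than in elpNSCs-early. Thy1, a surface glycoprotein of neurons and stromal cells, was above background in elpNSCs-early alone among the pNSC groups, at 7.05 and 6.95, and was at least 4.86-fold lower in elpNSCs-late. No fold can be given for Thy1 in the lung line, where neither time was above background. In Control-NSC it was at 9.05 and 9.19.

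Limb-only genes with a negative interaction, 160 in number, were led by Lypd1, a membrane-anchored modulator of nicotinic acetylcholine receptors. Lypd1 had 7.04 and 7.10 in alpNSCs-late and 7.18 and 7.22 in alpNSCs-early, against 10.44 and 10.52 in elpNSCs-late and 6.57 and 6.78 in elpNSCs-early. The elpNSCs-late arrays were the highest of the 8 and the elpNSCs-early arrays the lowest. The lung change was -0.13 (-0.40 to 0.14) and the limb line rose 13.9-fold (3.80, 3.53 to 4.07), an interaction of -3.93 ± 0.18 (limma adjusted p = 1.71e-07). Pdlim1, a PDZ-LIM adaptor of the actin cytoskeleton, had a lung change of -0.13 (-0.45 to 0.18) and rose 4.10-fold in the limb line. Cytip, a cytohesin-binding protein best known in lymphocytes, had a lung change of 0.16 (-0.15 to 0.47) and rose 3.71-fold in the limb line. Draxin, a secreted inhibitor of axon growth, had a lung change of -0.41 (-0.84 to 0.01) and a limb change of 1.15. Its interaction was -1.56 ± 0.28 (limma adjusted p = 6.42e-03), and another kept probe of Draxin had 0.19, of the opposite sign.

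**Figure D2:**
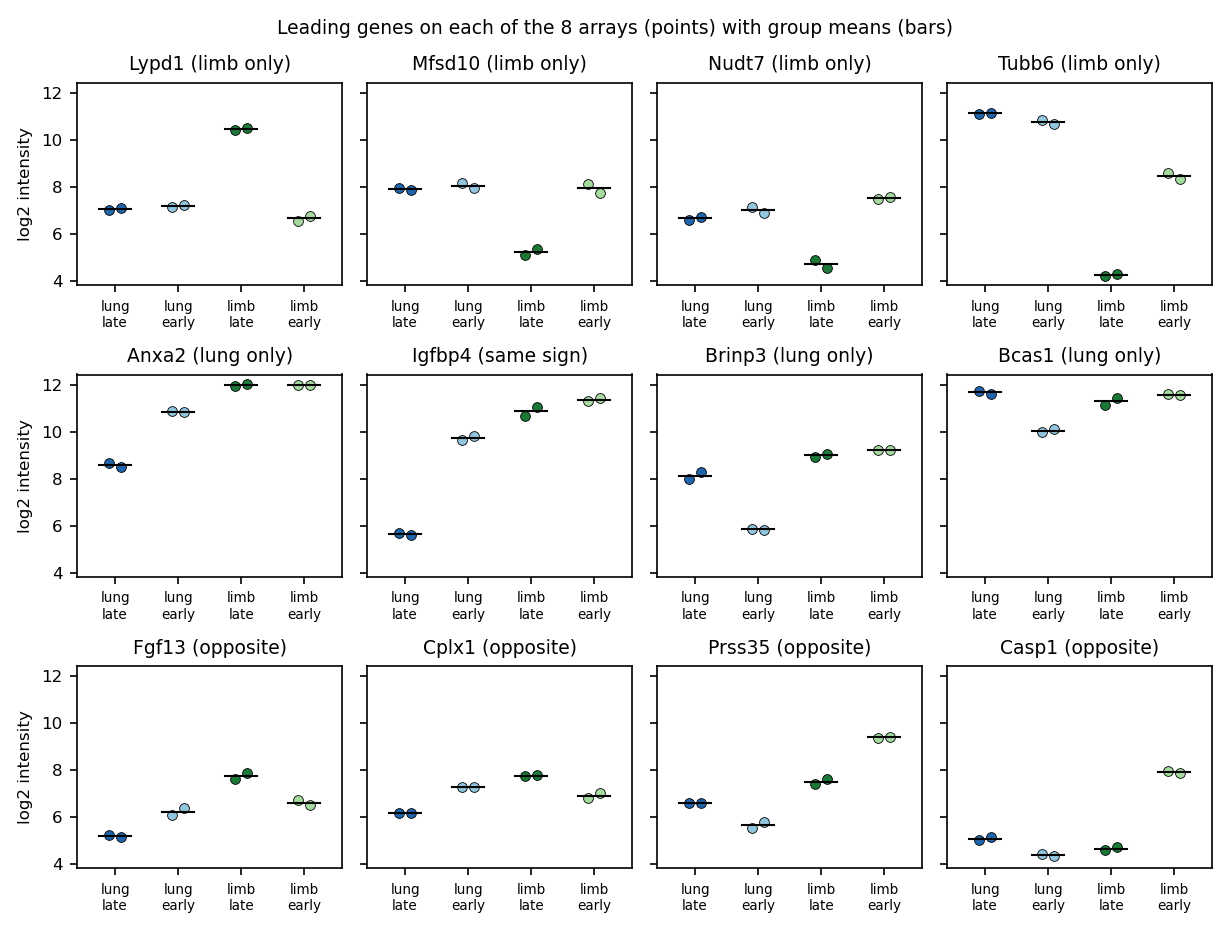
Normalized log2 intensity (vertical axis) of 12 leading genes on each of the 8 pNSC arrays, by line and time; points are arrays and bars are group means of 2 arrays. Lypd1 stands apart in limb late arrays, Mfsd10, Nudt7 and Tubb6 are lowest there, and Anxa2 and Igfbp4 are lowest in lung late arrays.

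The 62 lung-only genes, of which 42 had a negative interaction, turned on the lung line. Anxa2, a calcium-dependent membrane-binding annexin, had 8.68 and 8.48 in alpNSCs-late and 10.86 and 10.82 in alpNSCs-early, against 11.94 and 12.04 in elpNSCs-late and 12.00 and 11.98 in elpNSCs-early. The lung arrays lay below the limb arrays at both times and farther below them late. It fell 4.79-fold in the lung line, with a limb change of 0.00 (-0.24 to 0.25), and the interaction was -2.26 ± 0.16 (limma adjusted p = 6.57e-06). Gbx2, a homeobox gene that places the midbrain-hindbrain boundary, fell to 9.20 and 9.17 in alpNSCs-late, against 10.69 and 10.70 in alpNSCs-early, and was 8.57 and 8.55 in elpNSCs-late and 8.38 and 8.32 in elpNSCs-early. It was higher in the lung line at both times, and less so late. Shd, an SH2-domain adaptor, had 5.43 and 5.61 in alpNSCs-late and 8.02 and 8.06 in alpNSCs-early and was not above background in the limb line at either time.

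Among the 20 lung-only genes with a positive interaction, the lung line reached or neared the limb levels for some. Brinp3, a neural protein that inhibits the cell cycle, had 8.0 and 8.26 in alpNSCs-late and 5.86 and 5.83 in alpNSCs-early, against 8.94 and 9.04 in elpNSCs-late and 9.23 and 9.24 in elpNSCs-early. It rose 4.89-fold in the lung line, with a limb change of -0.24 (-0.50 to 0.02), and was not above background in Control-NSC. Bcas1, a marker of newly formed oligodendrocytes, had 11.74 and 11.60 in alpNSCs-late and 9.99 and 10.11 in alpNSCs-early, against 11.15 and 11.44 in elpNSCs-late and 11.59 and 11.58 in elpNSCs-early. The alpNSCs-early arrays were the low ones, and the gap between the lines was called early only. Serpinf1, which encodes the secreted factor PEDF, had an interaction of 1.39 ± 0.17 (limma adjusted p = 4.72e-04), and the alpNSCs-late arrays, at 7.47 and 7.50, were the high ones. Sostdc1, a secreted antagonist of BMP and Wnt signals, rose 6.43-fold in the lung line and had no measurable limb change, since elpNSCs-late was not above background and elpNSCs-early reached it on 1 array.

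The 27 genes called in opposite directions were split evenly, 14 with a positive and 13 with a negative interaction. Prss35, a serine protease-like secreted protein, had 6.61 and 6.6 in alpNSCs-late and 5.55 and 5.78 in alpNSCs-early, against 7.42 and 7.61 in elpNSCs-late and 9.39 and 9.40 in elpNSCs-early. It rose 1.91-fold in the lung line and fell 3.68-fold in the limb line, an interaction of 2.82 ± 0.17 (limma adjusted p = 2.18e-06), and the lines lay closer together late. Fgf13, an intracellular FGF homologue that binds sodium channels and microtubules, had 5.25 and 5.16 in alpNSCs-late and 6.09 and 6.38 in alpNSCs-early, against 7.65 and 7.89 in elpNSCs-late and 6.73 and 6.52 in elpNSCs-early. It fell 2.04-fold in the lung line and rose 2.21-fold in the limb line, and the gap was called late only. Cplx1, a complexin of synaptic vesicle release, had 6.17 and 6.18 in alpNSCs-late and 7.30 and 7.27 in alpNSCs-early, against 7.76 and 7.78 in elpNSCs-late and 6.8 and 7.01 in elpNSCs-early. The limb line was the higher late and the lung line the higher early.

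Of the other opposite genes, Pf4, a platelet chemokine, Clic5, a chloride channel-like protein, and Ntn3, a netrin, had positive interactions of 1.94, 1.93 and 1.7. Hs3st3a1, a heparan sulphate sulphotransferase, and Chchd7, a mitochondrial protein, had negative ones of -1.91 and -1.70. Casp1, the protease that matures interleukin-1 beta, had 5.02 and 5.17 in alpNSCs-late and 4.43 and 4.34, not above background, in alpNSCs-early, against 4.58 and 4.74 in elpNSCs-late and 7.95 and 7.90 in elpNSCs-early. It was at least 1.28-fold higher late in the lung line and fell 9.59-fold in the limb line, where 1 of the elpNSCs-late arrays did not detect it. Ugt8a, the enzyme that makes the galactolipids of myelin, had 4.26 and 4.27, not above background, in alpNSCs-late and 5.51 and 6.09 in alpNSCs-early, against 6.76 and 6.91 in elpNSCs-late and 5.58 and 5.68 in elpNSCs-early. It was at least 2.10-fold lower late in the lung line and rose 2.31-fold in the limb line.

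Genes that moved the same way by unequal amounts included the largest lung changes of those named. Igfbp4, a secreted binding protein of insulin-like growth factors, had 5.70 and 5.59 in alpNSCs-late and 9.66 and 9.81 in alpNSCs-early, against 10.68 and 11.05 in elpNSCs-late and 11.30 and 11.42 in elpNSCs-early. It fell 17-fold in the lung line and 1.41-fold in the limb line, an interaction of -3.60 ± 0.19 (limma adjusted p = 7.13e-07). Dmrta2, a transcription factor of the dorsal telencephalon, had 8.56 and 8.58 in alpNSCs-late and 5.17 and 5.25 in alpNSCs-early, against 7.97 and 7.71 in elpNSCs-late and 6.57 and 6.92 in elpNSCs-early. It rose 10.3-fold in the lung line and 2.14-fold in the limb line, so the line with the lower level early had the higher one late. Svop, a synaptic vesicle protein, fell 2.05-fold in the lung line and 9.75-fold in the limb line, and Gstt3, a glutathione transferase, fell 2.36-fold in the lung line and at least 10.4-fold in the limb line. Anxa3, another annexin, ended at background in both lines and was at least 14.0-fold lower late in the lung line and at least 1.57-fold lower in the limb line.

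Of 24 tested genes on a list of p53 targets and cyclin-dependent kinase (CDK) inhibitors, 8 were called (33.3%, against 5.66% of all genes tested), 6 positive and 2 negative, with a median interaction of 0.39 beside -0.002 over all genes. The 6 positive ones were targets of p53 and limb only: Bbc3, which encodes the cell death protein PUMA, Cdkn1a, the CDK inhibitor p21, Gadd45a, a DNA damage response gene, Ccng1, cyclin G1, Mdm2, the ubiquitin ligase that degrades p53, and Trp53inp1. Bbc3 had 8.43 and 8.35 in alpNSCs-late and 8.81 and 8.89 in alpNSCs-early, against 7.16 and 7.22 in elpNSCs-late and 8.87 and 9.14 in elpNSCs-early, with a lung change of -0.46, not called, and a 3.51-fold fall in the limb line (interaction 1.36 ± 0.18, limma adjusted p = 8.01e-04). Cdkn1a had 10.93 and 11.03 in alpNSCs-late and 11.33 and 11.35 in alpNSCs-early, against 10.17 and 10.35 in elpNSCs-late and 11.50 and 11.67 in elpNSCs-early. For all 6 of these genes both elpNSCs-late arrays were below the other 6 pNSC arrays, and the gap between the lines was called late only. The 6 were picked as called, limb only and positive, which favours low elpNSCs-late levels. Over all 259 limb-only genes with a positive interaction, elpNSCs-late was the farthest group for 113. The gap was called late only for 134 of the 419 limb-only genes. The interactions of Gadd45a, Ccng1, Mdm2 and Trp53inp1 were 1.05, 0.81, 0.78 and 0.81, with limma adjusted p = 0.010, 2.13e-02, 2.17e-02 and 3.55e-02. With arrays scaled to a common median in place of quantiles, 1 positive gene of the list was called, Bbc3, and the median of the list lay 0.32 above that of all genes. Leaving out single arrays ended the calls of Ccng1, Mdm2 and Trp53inp1 in 5 to 7 of 8 cases (adjusted p up to 0.145), and the mean over probes ended that of Bbc3 (adjusted p = 0.239).

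Other p53 targets of the list were not called. Among them were Zmat3, Sesn2 and Phlda3, with interactions of 0.94, 0.76 and 0.73, and Pmaip1 and Plk3, with -0.12 each. Of the 24 tested genes of the list, 18 had a positive interaction. The 2 negative genes, Cdkn2b and Cdkn2a, encode INK4 inhibitors of CDK4 and CDK6. The remaining INK4 genes, Cdkn2c and Cdkn2d, had interactions of 0.28 and 0.03, not called. Cdkn2b, which encodes p15, had 5.50 and 5.49 in alpNSCs-late and 8.50 and 8.28 in alpNSCs-early, against 8.87 and 9.06 in elpNSCs-late and 9.42 and 9.35 in elpNSCs-early. It fell 7.45-fold in the lung line and 1.34-fold in the limb line (interaction -2.47 ± 0.17, limma adjusted p = 6.57e-06). Its neighbour Cdkn2a, which encodes p16 and ARF, had an interaction of -1.02 ± 0.23 (limma adjusted p = 2.14e-02), with a lung change of -1.59 and a limb change of -0.56. Both genes were lower late than early in both lines. The call of Cdkn2a ended without alpNSCs-late replicate 2, alpNSCs-early replicate 1 or elpNSCs-late replicate 1 (adjusted p up to 0.100).

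Called genes of glucose use and the hypoxia response had the opposite sign to the called p53 targets. Of 33 tested, 5 were called (15.2%, against 5.66% of all genes tested) and all 5 were negative. The median interaction was -0.40, and 7 of the 33 had a positive value, against 5049 of all 10144 genes. With arrays scaled to a common median, the median of the list relative to all genes was -0.33. Hk2, the hexokinase that starts glycolysis, had 9.07 and 9.29 in alpNSCs-late and 8.56 and 8.74 in alpNSCs-early, against 9.18 and 9.94 in elpNSCs-late and 7.67 and 7.27 in elpNSCs-early. Its change was 0.53 (0.07 to 1.00) in the lung line, not called, and 2.09 in the limb line. Egln3, an oxygen-sensing hydroxylase, had 8.36 and 8.64 in alpNSCs-late and 8.23 and 8.35 in alpNSCs-early, against 9.07 and 9.37 in elpNSCs-late and 7.78 and 7.66 in elpNSCs-early. Ndrg1, a stress-induced gene, was at least 5.09-fold higher in elpNSCs-late than in elpNSCs-early, with replicate levels of 6.59 and 7.49, and was detected on 1 of the 4 lung arrays. Ddit4, an inhibitor of mTORC1 signalling, had an interaction of -0.86 and Aldoc, a brain aldolase, -0.84. Leaving out single arrays ended the calls of Ddit4 (2 of 8 cases, adjusted p up to 0.0547) and Aldoc (6 of 8, up to 0.129), and that of Hk2 only without alpNSCs-late replicate 1 (0.0502). With the deposited log2 values Ndrg1 had an adjusted p of 0.0598.

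The start regions of 4 of these 5 genes were in the RefSeq table used here (GRCm38.p6, 250 bases before to 50 after the first listed start) and are shown because the core of the hypoxia response element, ACGTG, could be looked for in them. Capitals mark ACGTG or, for the other strand, CACGT; the longer palindrome CACGTG, which holds both, was absent from these 4.
Egln3 (chr12:54203825-54204124, minus strand): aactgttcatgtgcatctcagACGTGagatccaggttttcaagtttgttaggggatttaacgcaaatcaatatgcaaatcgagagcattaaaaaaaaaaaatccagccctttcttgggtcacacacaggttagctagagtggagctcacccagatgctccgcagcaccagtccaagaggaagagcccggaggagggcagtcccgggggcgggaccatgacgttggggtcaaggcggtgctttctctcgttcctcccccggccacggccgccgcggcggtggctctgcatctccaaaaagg
Hk2 (chr6:82774405-82774704, minus strand): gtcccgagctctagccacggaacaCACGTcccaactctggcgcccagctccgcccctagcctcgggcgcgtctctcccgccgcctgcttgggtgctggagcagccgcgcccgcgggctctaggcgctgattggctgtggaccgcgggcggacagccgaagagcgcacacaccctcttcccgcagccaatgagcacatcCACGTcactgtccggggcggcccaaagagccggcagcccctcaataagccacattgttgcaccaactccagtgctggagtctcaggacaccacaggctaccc
Ddit4 (chr10:59951721-59952020, minus strand): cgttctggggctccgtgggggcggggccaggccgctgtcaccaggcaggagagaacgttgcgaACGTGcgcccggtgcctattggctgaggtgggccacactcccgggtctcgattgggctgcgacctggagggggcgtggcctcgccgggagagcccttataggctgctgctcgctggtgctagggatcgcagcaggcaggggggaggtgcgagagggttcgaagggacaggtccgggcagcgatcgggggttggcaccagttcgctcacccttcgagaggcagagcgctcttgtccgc
Aldoc (chr11:78322823-78323122, plus strand): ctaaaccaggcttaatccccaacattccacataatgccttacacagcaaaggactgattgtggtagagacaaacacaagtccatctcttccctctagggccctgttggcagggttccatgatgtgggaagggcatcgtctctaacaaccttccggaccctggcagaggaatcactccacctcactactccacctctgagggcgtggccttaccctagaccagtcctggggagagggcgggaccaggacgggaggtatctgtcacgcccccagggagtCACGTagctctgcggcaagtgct
All 4 held a match, as did 17 of the 30 listed glucose and hypoxia genes with a start region (56.7%), against 25.5% of the 8223 tested genes with one and 19.7% of all 27025 genes in the table. Among the 451 called genes with a start region the share was 25.5%. A match to 5 letters is a description of the sequence and not a bound site.

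Genes of cell division had the same sign of interaction as the glucose genes, and few passed the test. All 14 tested mitosis genes had a negative value (median -0.51), with medians of 0.67 in the lung line and 1.2 in the limb line, and 1 was called (7.14%), Cdk1, the kinase that drives entry into mitosis (lung 0.58, limb 1.46, limma adjusted p = 3.34e-02). Of 20 DNA replication genes, 3 were called (15%, against 5.66% of all genes tested) and negative: Cdc6, which loads the replicative helicase, Tk1, a thymidine kinase, and Pcna, the sliding clamp. Cdc6 had 8.90 and 8.93 in alpNSCs-late and 8.62 and 8.67 in alpNSCs-early, against 9.48 and 9.40 in elpNSCs-late and 7.94 and 7.97 in elpNSCs-early (interaction -1.21 ± 0.18, limma adjusted p = 2.05e-03). The calls of Cdk1, Tk1 and Pcna were each lost under 10 of 19 alternatives, among them 5 or 6 of the 8 fits without 1 array (adjusted p up to 0.131), and that of Cdc6 under none.

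Called genes of adhesion and antigen processing had positive interactions, as the called p53 targets had. Of 26 integrin and basement membrane genes, 22 had a positive interaction (median 0.38), against 5049 of all 10144 genes. Among the 26, 4 were called (15.4%, against 5.66% of all genes tested), all positive. These were Lamc1, a laminin chain, Dag1, the laminin receptor dystroglycan, Itgb5, an integrin, and Col4a1, a collagen IV chain. Lamc1 had 9.05 and 9.16 in alpNSCs-late and 8.86 and 9.36 in alpNSCs-early, against 8.39 and 8.41 in elpNSCs-late and 9.74 and 9.85 in elpNSCs-early (interaction 1.39 ± 0.24, limma adjusted p = 5.65e-03). The call of Col4a1 ended in 5 of the 8 fits without 1 array (adjusted p up to 0.0939). Of 19 genes of MHC class I and antigen processing, 3 were called (15.8%) and positive, and 14 had a positive interaction (median 0.30). With arrays scaled to a common median, 20 integrin and basement membrane genes (median 0.17) and 10 MHC genes (median 0.03) had a positive interaction. Relative to all genes these medians were 0.33 and 0.19. Tap2, a subunit of the peptide transporter, had 7.08 and 7.0 in alpNSCs-late and 6.89 and 6.94 in alpNSCs-early, against 6.54 and 6.33 in elpNSCs-late and 8.25 and 7.90 in elpNSCs-early. Tapbp, which loads peptides, had a lung change of -0.46, not called, and fell 2.83-fold in the limb line, and its interaction was not called with the mean over probes (adjusted p = 0.138).

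**Figure D3:**
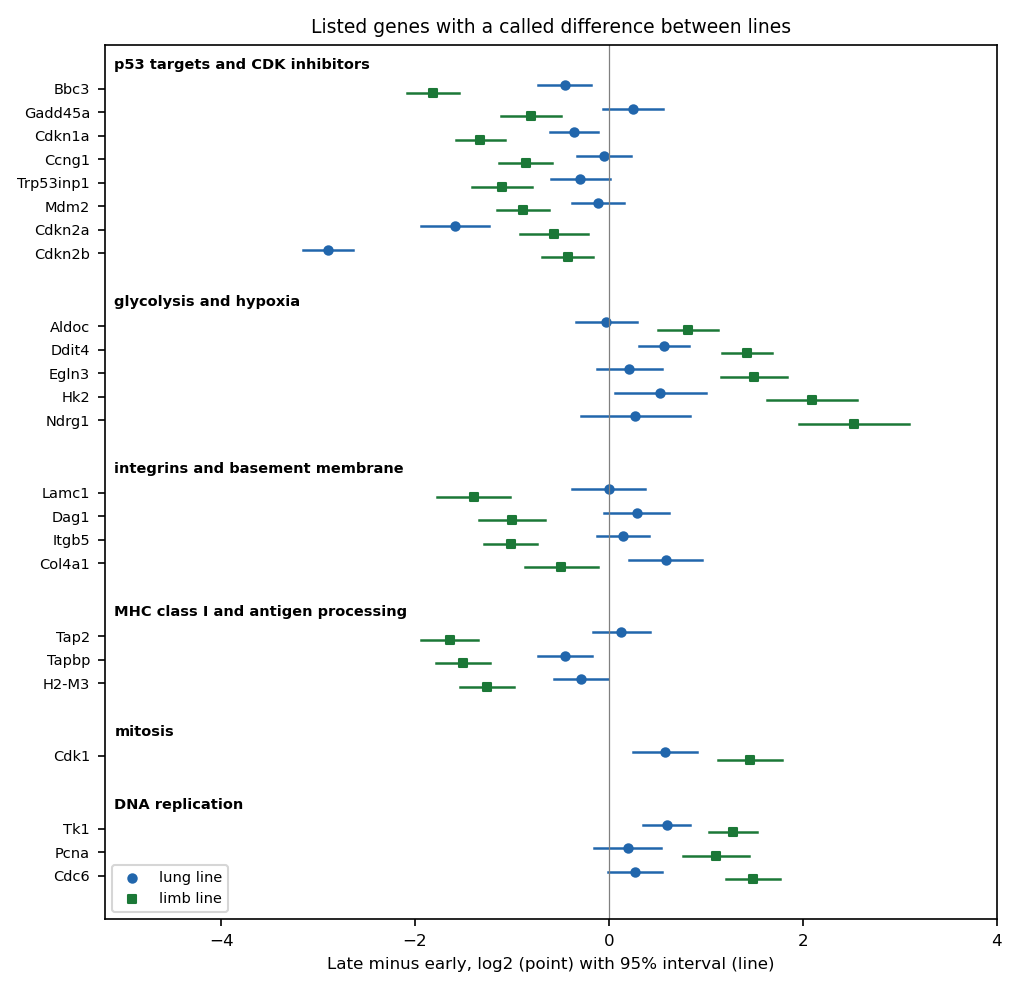
Late-early change (horizontal axis, log2) in the lung line (circles) and limb line (squares) for called members of 6 gene lists, with 95% intervals. The 6 p53 targets lie left of 0 in the limb line and the 5 glucose and hypoxia genes right of it, while Cdkn2b and Cdkn2a lie farther left in the lung line.

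Genes of glial lineages and of the Notch and Wnt pathways were called in both directions, at higher shares than the 5.66% of all genes tested. Of 13 oligodendrocyte lineage genes, 4 were called (30.8%), 1 positive and 3 negative. Beside Ugt8a and Bcas1, Gpr17, a receptor of oligodendrocyte precursors, was above background on both arrays of elpNSCs-late alone, at 6.95 and 6.8, at least 4.54-fold above elpNSCs-early. Nkx2-2, a homeodomain factor of oligodendrocyte precursors, was not above background in alpNSCs-late, at least 2.43-fold below alpNSCs-early, with 8.78 and 8.69 in elpNSCs-late and 8.65 and 8.73 in elpNSCs-early. Of 18 astrocyte genes, 7 were called (38.9%), 4 positive and 3 negative. The astrocyte calls were 1 positive and 2 negative with the deposited log2 values, and 3 and 5 with arrays scaled to a common median. The calls of Aqp4, Aldoc, S100b and Sparcl1 were lost under 10, 9, 8 and 4 of 19 alternatives, and those of Agt and Gja1 under none. Of 17 Notch pathway genes, 5 were called (29.4%), 4 of them negative: Mfng, a glycosyltransferase of Notch, Dll3, a ligand-like inhibitor, Hey1, a target, and Hes6, an inhibitor of Hes1. The remaining gene, Dtx1, a ubiquitin ligase of Notch, was positive. Fits without 1 array ended the calls of Hes6, Dtx1 and Hey1 in 4, 5 and 1 of 8 cases (adjusted p up to 0.102), and the mean over probes ended that of Mfng (0.204). Of 26 Wnt genes, 6 were called (23.1%), 5 positive and 1 negative. Among them, Wnt7b, a ligand, rose 1.63-fold in the lung line and fell 1.73-fold in the limb line. Sfrp2, a secreted Wnt antagonist, fell 1.80-fold in the lung line and rose 1.36-fold in the limb line. The Wnt calls were 1 positive and 1 negative with the deposited log2 values, and 1 and 2 with arrays scaled to a common median. They stayed 5 and 1 with an offset of 50 or without background correction. Of 20 neural stem cell genes 1 was called (5%, near the share of all genes), Tnc, which was lost in 7 of the 8 fits without 1 array (adjusted p up to 0.145), and of 21 heat shock and 35 respiratory chain genes 0 were called. Over all 38 lists, 88 of 698 tested genes were called (12.6%, against 5.66% of all genes tested). The lists were chosen with earlier results of these data known, so the shares of all lists are descriptions and not tests.

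Markers that the study stained as protein gave both calls and no calls at the RNA level. It stained S100B and NeuN in differentiated or transplanted cells, which are not the cells of these arrays. S100b, a calcium-binding protein of astrocytes and Schwann cells, had 4.86 and 4.97 in alpNSCs-late and 5.45 and 4.63 in alpNSCs-early, where 1 array did not detect it, against 5.84 and 5.45 in elpNSCs-late and 7.20 and 6.98 in elpNSCs-early. Its interaction was 1.33 ± 0.32 (limma adjusted p = 3.34e-02), and the call ended in 5 of the 8 fits without 1 array (adjusted p up to 0.119). Rbfox3, the neuronal antigen NeuN, was not above background in the lung line at either time, and had 5.94 and 6.24 in elpNSCs-late and 5.07 and 4.98 in elpNSCs-early. The fit called its interaction (limma adjusted p = 1.18e-02), and not without alpNSCs-late replicate 1 (0.0577) or with the deposited values (0.207). The interaction was -0.26 ± 0.28 for Sox2 and 0.22 ± 0.40 for Olig2, transcription factors of neural progenitors, and -0.03 ± 0.20 for Nes, the intermediate filament nestin, with limma adjusted p = 0.686, 0.839 and 0.956. The error was widest for Olig2, whose elpNSCs-early replicates were 6.89 and 8.03. Ccn2, a matricellular protein under YAP control, was not among the stained markers. It had 5.25 and 5.22 in alpNSCs-late and 8.33 and 8.36 in alpNSCs-early. In the limb line it had 4.70 and 4.55, not above background, in elpNSCs-late and 7.93 and 7.67 in elpNSCs-early. It was 8.64-fold lower late in the lung line and at least 8.48-fold lower in the limb line, so the difference between the lines cannot be sized.

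Negative calls gathered on chromosome 11, which was noticed after the values were seen. Chromosome 11 held 873 of the tested genes (8.61%), and 55 of the 251 genes with a negative interaction (21.9%) against 16 of the 323 with a positive one (4.95%). The median interaction of its genes was -0.20, against -0.02 to 0.04 on the other 19 chromosomes with at least 100 tested genes. Its median change was 0.01 in the lung line and 0.15 in the limb line. Over the 680 genes of chromosome 11 measured above background in every pNSC group, the medians were -0.25 for the interaction, 0.02 in the lung line and 0.24 in the limb line, against 0.01, 0.004 and -0.01 for 7212 such genes elsewhere, and the interaction was negative for 74.0% of them against 48.4% elsewhere.

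The shift lay in the elpNSCs-late arrays. Relative to each gene's mean over the 8 pNSC arrays, the median deviation of chromosome 11 genes was -0.03 and -0.04 in alpNSCs-late and -0.05 and -0.04 in alpNSCs-early, against 0.13 and 0.09 in elpNSCs-late and -0.04 and -0.08 in elpNSCs-early. Control-NSC arrays had -0.05 and -0.04. Genes elsewhere had medians between -0.02 and 0.02 on all 8 arrays. In order along the chromosome, each of 5 equal stretches of its genes had a negative median, between -0.24 and -0.16, and between 7 and 16 negative calls. Over the 16 choices of 1 array per group the median of the whole chromosome ran between -0.25 and -0.10. Negative calls on it were mostly limb only (42 of 55), among them Brip1, a DNA repair helicase, with a lung change of 0.35 and a limb change of 1.63. Ska2, a kinetochore protein, had a lung change of 0.37 and a limb change of 1.38, and Nup85, a nuclear pore protein, a lung change of 0.38 and a limb change of 1.25. Ftsj3 and Utp6, factors of ribosome assembly, had lung changes of -0.29 and -0.13 and limb changes of 0.81 and 0.72. Of genes described above, Igfbp4, Hs3st3a1, Cdc6, Rbfox3, Aldoc and Tk1, with negative interactions, and Cacng5, Serpinf1 and Ccng1, with positive ones, lie on the same chromosome. The number of chromosomes in these cells was not measured here. Off chromosome 11, 503 genes were called, 307 positive and 196 negative.

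**Figure D4:**
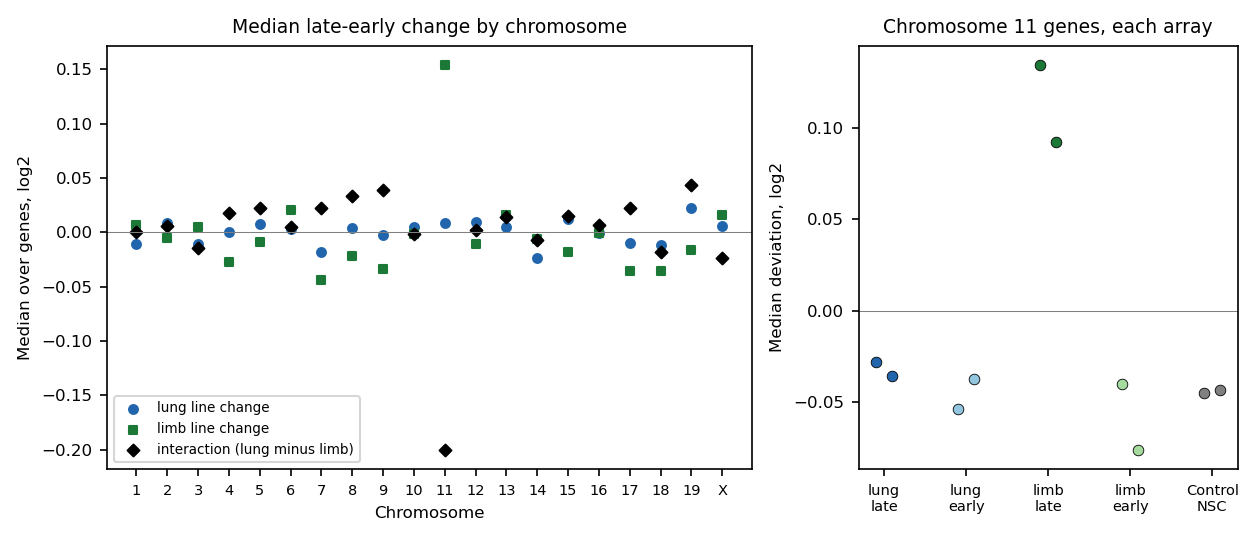
Left, median over genes of the lung change, the limb change and their difference (vertical axis, log2) by chromosome. Right, median deviation (log2) of the 873 chromosome 11 genes from their mean over the 8 pNSC arrays, 1 point per array; the limb late arrays, at 0.13 and 0.09, lie above all others.

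Set against Control-NSC, the late level was the closer one for 238 of the 419 limb-only genes in the lung line and, by the same count, 238 in the limb line (56.8% each), beside 56.8% in the lung line and 58.5% in the limb line for the genes not called. For the 62 lung-only genes the late level was the closer one for 35 in the lung line (56.5%) and 24 in the limb line (38.7%). The median distance of these genes from Control-NSC was 0.49 in alpNSCs-late and 1.12 in alpNSCs-early, against 0.69 in elpNSCs-late and 0.50 in elpNSCs-early. For the genes not called it was 0.15, 0.18, 0.17 and 0.22, in the same order. The sorting asked for a call in the lung line and none in the limb line, so a larger shift of the lung distance follows in part from it. At least 1 pNSC group was at background for 34 of the 62.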

How the data were processed

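Biotin-labelled copies of total RNA from 12 samples were read on Illumina mouse bead arrays. The deposited raw table holds a linear signal intensity per probe and array, which the authors exported from BeadStudio without normalization. Each deposited intensity comes with its detection p-value. The authors' own normalized log2 values, made with lumi and deposited beside the raw ones, served as an alternative. No other columns were used.

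Here limma 3.58.1 (R 4.3.3) was used. Its neqc function inferred negative controls through the detection p-values, corrected the background by normexp with an offset of 16, normalized quantiles and took log2. Probes with a detection p-value under 0.05 on at least 2 arrays were kept (14869 of 25697). The platform annotation gave 23978 probes 1 symbol, 0 several and 1719 none, and 23962 matched RefSeq (GRCm38.p6), used for names, chromosomes and start regions. The 863 kept but unnamed probes were left out. A gene was represented by its kept probe of highest mean. Of 170 called genes with another kept probe, all other probes had the same sign for 143. For 3 genes, Mfng among them, another probe had the opposite sign at an unadjusted limma p under 0.05. The other probes of Bbc3 had interactions of 0.06 and -0.39. One model (lmFit, contrasts.fit, eBayes; 6 residual and 5.82 prior degrees of freedom) over 12 arrays gave each contrast, with Benjamini-Hochberg adjustment over 10144 genes and a threshold of 0.05.

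Classes came from the 3 tests of the interaction, the lung change and the limb change. A gene above background on no array of a group has only a bound there, given as at least N-fold from the lowest detected signal of each array. Named genes were the largest interactions per class and sign among genes above background in all 4 pNSC groups, the 8 smallest p-values among called genes at background in a group, up to 4 called members of each list, and markers of neural stem cells, fibroblasts and pluripotency with Ccn2. Ccng1, Mdm2, Trp53inp1, Cdkn2a, Cdkn2c, Cdkn2d, Zmat3, Sesn2, Phlda3, Pmaip1, Plk3, Aldoc, Hes6 and the chromosome 11 genes were named after their values were seen. Members, lists and tests were chosen with earlier results of these data known. The fit was tested on simulated arrays. The replicate numbers were checked for pairing and did not pair the samples.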

Additional observations from a re-analysis of the deposited data

Results flagged for a closer look

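The interaction is itself a test of whether the lung and limb lines changed differently, and it was called for 574 genes. The clearest form is a change called in both lines in opposite directions. Named genes of this kind, with the interaction on the log2 scale, were Casp1 (3.97), Prss35 (2.82), Pf4 (1.94), Clic5 (1.93), Ntn3 (1.7), Nupr1 (1.66) and Wnt7b (1.5), which moved up in the lung line and down in the limb line. Ugt8a (-2.74), Fgf13 (-2.18), Cplx1 (-1.98), Hs3st3a1 (-1.91), Chchd7 (-1.70), Sfrp2 (-1.29) and Gap43 (-1.24) moved down in the lung line and up in the limb line. Casp1, Nupr1 and Ugt8a were not above background in 1 group, so their values are fitted ones, and the differences between the lines were at least 12.3-fold, 3.05-fold and 4.85-fold. Groups of 2 arrays are too small for a check of single arrays that stand apart.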

How the results depend on the processing

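The main counts were 574 called genes, 419 limb only, 62 lung only and 27 opposite. The deposited log2 values gave 326 called and 217 limb only, the 8 pNSC arrays alone 314 and 220 (9211 genes tested), and a fold of at least 2 gave 268 called, 176 limb only and 38 lung only. Of the 574 genes, 292 were also called with the deposited values and 313 with the 8 arrays alone. Leaving out 1 array gave 278 to 807 called, 198 to 613 limb only, 41 to 78 lung only and 13 to 28 opposite; the fewest calls came without alpNSCs-late replicate 1 and the most without elpNSCs-early replicate 2. Median scaling moved the median interaction of all genes by -0.157 and gave 178 positive and 521 negative calls, against 323 and 251, so the balance of signs depends on the scaling. The cause was not tested. The other alternatives kept these counts within 1.5 times.

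The median interaction of chromosome 11 was -0.200 and became -0.265 with the deposited values, -0.138 with an offset of 50, -0.098 without background correction, -0.0657 without a detection filter and -0.368 with median scaling (-0.211 relative to all genes); without 1 array it ran between -0.216 and -0.151. This result was added after the data were seen.

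Of 124 called genes followed singly, 66 were called under every alternative and 58 were lost under at least 1. Ier3 reversed, to -0.226 without background correction. With the replicate block 681 genes were called, 569 of the 574 among them; deviations of same-numbered arrays correlated between -0.150 and 0.240. The slide could not be used as a block, since the files used here name none. The 2 arrays per group limit all error estimates, and genes near background have little measurable range.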
